A study of Mus musculus with 6 samples.

Results

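The genes described here encode the AMPA and NMDA receptor subunits, the ion channels that open when glutamate binds. They are the 4 AMPA genes *Gria1*, *Gria2*, *Gria3* and *Gria4* and the 6 NMDA genes *Grin1*, *Grin2a*, *Grin2b*, *Grin2c*, *Grin2d* and *Grin3a*, a list of 10 of the 50686 genes in the count files, all of which had enough reads to be tested. RNASeq was carried out on 2 wild type NSC cultures (neural stem cells) and on 2 cultures labelled NSC Bmi1Over with the genotype STOPFloxBmi1;NestinCre, in which a Cre expressed under Nestin, a gene of neural progenitors, removes the stop in front of a Bmi1 transgene. H3K27me3, the histone mark set by the Polycomb complex PRC2, was profiled by ChIPSeq in 2 cultures of each genotype. The study kept 1 library of each after quality checks, and that library is used here. The NSC cultures were prepared from the cerebral hemispheres of E16.5 embryos and grown in EGF and FGF, as neurospheres or as an adherent layer, and the labels do not say which form a library came from. The mGIC samples were not analysed here.

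AMPA receptors are tetramers that carry most of the fast excitatory current in the brain. The *Gria2* product makes them nearly impermeable to calcium once its transcript has been edited, so that receptors without it let calcium in. NMDA receptors need glutamate together with glycine or D-serine, and a functional channel needs the obligatory subunit made by *Grin1*, joined by *Grin2* products, which set its kinetics, or by the *Grin3a* product, which lowers its calcium permeability. In the forebrain, *Grin2b* and *Grin2d* are known as the early subunits, *Grin2a* as the later neuronal subunit and *Grin2c* as a subunit of the cerebellum and of glia. Progenitors and cells of the oligodendrocyte lineage are also known to carry AMPA receptors.

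Counted reads ranged from 18112100 to 61353076 per library, and unmapped reads made up 11.2% and 13.7% of the NSC libraries and 16.2% and 17.6% of those labelled NSC Bmi1Over. *Bmi1* was at 133 and 123 CPM (reads scaled to library size with TMM factors) in NSC and at 119 and 112 CPM in those labelled NSC Bmi1Over, with a log2 fold change of −0.15 ± 0.12 (SE, n = 2 and 2, adjusted p = 0.463 from edgeR), so reads on the *Bmi1* gene were not higher in the cultures labelled NSC Bmi1Over, and every direction below rests on the labels. Whether transgene reads are counted on this gene is not given in the sources used here. Of the defining markers, the neural stem cell genes summed to between 5994 and 6661 CPM in NSC and between 6531 and 6690 CPM in those labelled NSC Bmi1Over, but this sum rested in part on *Slc1a3*, its largest member, at 1837 and 2226 CPM and then at 2531 and 3060 CPM (adjusted p = 0.257 from edgeR). Without *Slc1a3*, a sum added after seeing the data, it was 4157 and 4435 CPM in NSC and lower, at 4001 and 3630 CPM, in those labelled NSC Bmi1Over. Of the 10 genes, 0 were called by edgeR and the median log2 fold change was −0.21. Those of the oligodendrocyte lineage summed to between 2479 and 2607 CPM and between 2484 and 2563 CPM, mostly from *Olig1* and *Olig2*, which went opposite ways. *Olig1* was at 1418 and 1363 CPM and then at 1283 and 1019 CPM (adjusted p = 0.418 from edgeR). *Olig2* was at 824 and 930 CPM and then at 1006 and 981 CPM (adjusted p = 0.548 from edgeR). The cultures labelled NSC Bmi1Over differed from each other for *Pdgfra*, at 16.4 and 44.4 CPM, and for *Sox10*, at 0.285 and 4.63 CPM. The sum of the 10 neuronal markers was between 1026 and 1036 CPM in NSC and between 1014 and 1110 CPM in those labelled NSC Bmi1Over, of which *Map2* alone made up between 77.6% and 88.7%. Without *Map2*, also added after seeing the data, the sum was 117 and 148 CPM in NSC and 191 and 227 CPM in those labelled NSC Bmi1Over, and without *Syt1* as well it was 108 and 121 CPM and then 125 and 131 CPM. The median log2 fold change of the 8 tested neuronal markers was −0.0059, with 4 negative (*Tubb3*, *Dcx*, *Map2* and *Snap25*) and 4 positive values (*Syt1*, *Neurod1*, *Gap43* and *Rbfox3*). The groups overlapped for *Tubb3*, *Dcx*, *Map2* and *Rbfox3*, whose sign turned when a culture was left out, and not for the other 4. *Neurod6* was at 0 in all 4 libraries and *Stmn2* at or near 0. The markers of microglia, endothelial, mesenchymal and erythroid cells summed to at most 3.23 CPM per list in any library. The 5 astrocyte markers summed to between 193 and 253 CPM in NSC and to between 125 and 137 CPM in those labelled NSC Bmi1Over. Most of this sum came from *Aldh1l1*, at 122 and 94.1 CPM and then at 65.9 and 53.2 CPM, and from *Aldoc*. *Aldoc* was at 113 and 82.7 CPM and then at 52.4 and 59.8 CPM. The groups overlapped for *Gfap*, *Aqp4* and *S100b*, with log2 fold changes of 0.03, −0.06 and −0.29. As these are bulk cultures, fewer cells of a type and less RNA per cell cannot be told apart.

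Of the 10 genes, 5 had a promoter in the RefSeq table of build GRCm38.p6 (*Gria2*, *Gria4*, *Grin1*, *Grin2c* and *Grin2d*). The promoters of 3 of these are printed from 250 bases before to 50 bases after the start, with each CpG in capitals, since PRC2 is known to act mainly at CpG-rich DNA. *Grin2c* is shown because an NSC peak of H3K27me3 reached into its promoter, *Grin1* because its NSC peak lay elsewhere in the gene, and *Gria4* because it was the gene called as changed. All 3 are read on the minus strand, *Grin2c* from chr11:115267194-115267493, *Grin1* from chr2:25319138-25319437 and *Gria4* from chr9:4796185-4796484.
*Grin2c*: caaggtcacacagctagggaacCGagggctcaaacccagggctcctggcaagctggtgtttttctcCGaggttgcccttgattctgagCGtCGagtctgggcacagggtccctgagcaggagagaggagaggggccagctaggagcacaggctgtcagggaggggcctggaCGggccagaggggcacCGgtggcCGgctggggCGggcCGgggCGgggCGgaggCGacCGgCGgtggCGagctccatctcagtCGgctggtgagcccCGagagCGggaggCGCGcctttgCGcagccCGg
*Grin1*: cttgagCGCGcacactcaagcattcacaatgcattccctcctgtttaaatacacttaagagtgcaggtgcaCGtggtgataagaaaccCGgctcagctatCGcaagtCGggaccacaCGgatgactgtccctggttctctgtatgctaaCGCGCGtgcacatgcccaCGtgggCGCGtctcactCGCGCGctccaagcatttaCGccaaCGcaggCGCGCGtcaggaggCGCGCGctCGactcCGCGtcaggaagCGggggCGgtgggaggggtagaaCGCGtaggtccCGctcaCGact
*Gria4*: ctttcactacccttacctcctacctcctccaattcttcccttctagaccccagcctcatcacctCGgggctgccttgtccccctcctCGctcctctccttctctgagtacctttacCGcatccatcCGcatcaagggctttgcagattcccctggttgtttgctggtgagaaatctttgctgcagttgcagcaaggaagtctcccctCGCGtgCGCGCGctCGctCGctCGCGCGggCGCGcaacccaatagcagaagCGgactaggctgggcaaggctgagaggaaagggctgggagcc
The *Grin1* promoter held 33 CpG. Of the 32817 promoters in the table, 91.4% held fewer, and their median was 7. The *Grin2c* promoter held 22 and that of *Gria4* 17. H3K27me3 peaks covered 213 of the 300 bases of the *Grin2c* promoter in NSC and 0 in the library labelled NSC Bmi1Over, and none of the *Grin1* or *Gria4* promoter in either list. A search on both strands for the cores of RE1, the site of the neuronal repressor REST, found CAGCACC in none of the 5 promoters (7.14% of all promoters held it) and GGACAG in *Grin1*, *Gria2* and *Grin2d* (22.2% of all). The GC box GGGCGG was in *Grin1* and *Grin2c* (35.6% of all) and TATAAA in none (13.6% of all). These matches are descriptions of the printed windows only.

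In wild type NSC, 5 of the 10 genes were above 1 per kb, that is 1 CPM for each kb of the union of a gene's exons, the unit in which levels of different genes are compared here, namely *Gria2*, *Gria4*, *Gria3*, *Grin3a* and *Grin2c* in falling order. *Gria2* was far ahead of the rest, at 42.8 and 49.2 per kb in the 2 cultures and a mean of 46.0 ± 4.54 (SD, n = 2), above 96.1% of the 21841 protein-coding genes in the files. *Gria4* followed at 13.1 and 15.4 per kb, *Gria3* at 9.88 and 13.9, and *Grin3a* at 7.51 and 11.7. The ranges of neighbouring genes in this run of 3 overlapped between cultures, although within each of the 4 libraries their order was the same. The order of *Gria4* and *Gria3* depended on the gene length. With the longest coding transcript as the length, *Gria3* had a mean of 22.6 and *Gria4* of 16.5 per kb in NSC, and *Gria4* was above *Gria3* in 1 of the 4 libraries. *Grin2c* came next at 5.04 and 6.78 per kb, with a mean above 69.1% of the protein-coding genes. The mean of *Grin1*, the next below, was above 49.2% of them. The count of 5 genes above 1 per kb thus does not by itself set these genes apart.

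The other 5 genes were below 1 per kb, with means above between 40.4% (*Grin2b*) and 49.2% (*Grin1*) of the protein-coding genes. *Grin1*, the obligatory NMDA subunit, was at 0.783 and 0.790 per kb in NSC, below *Grin3a* and *Grin2c* in both cultures. *Gria1*, the AMPA subunit of mature hippocampal synapses, was at 0.754 and 0.451 per kb. *Grin2a* was at 0.263 and 0.269, *Grin2d* at 0.185 and 0.196 and *Grin2b* at 0.172 and 0.0986 per kb. Reads behind these genes were few, between 33 and 39 for *Grin2d*, between 62 and 135 for *Grin2b* and between 194 and 240 for *Grin1* in the NSC libraries. From *Grin2c* downwards no neighbours overlapped within NSC, but with 2 cultures the spread is itself poorly known. In the cultures labelled NSC Bmi1Over the order of the means was the same, from *Gria2* at 50.8 ± 6.05 and *Gria4* at 29.4 ± 2.45 per kb (SD, n = 2) to *Grin2b* at 0.101, while *Gria1* now overlapped with *Grin2a* and *Grin2a* with *Grin2d*.

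**Figure D1:**
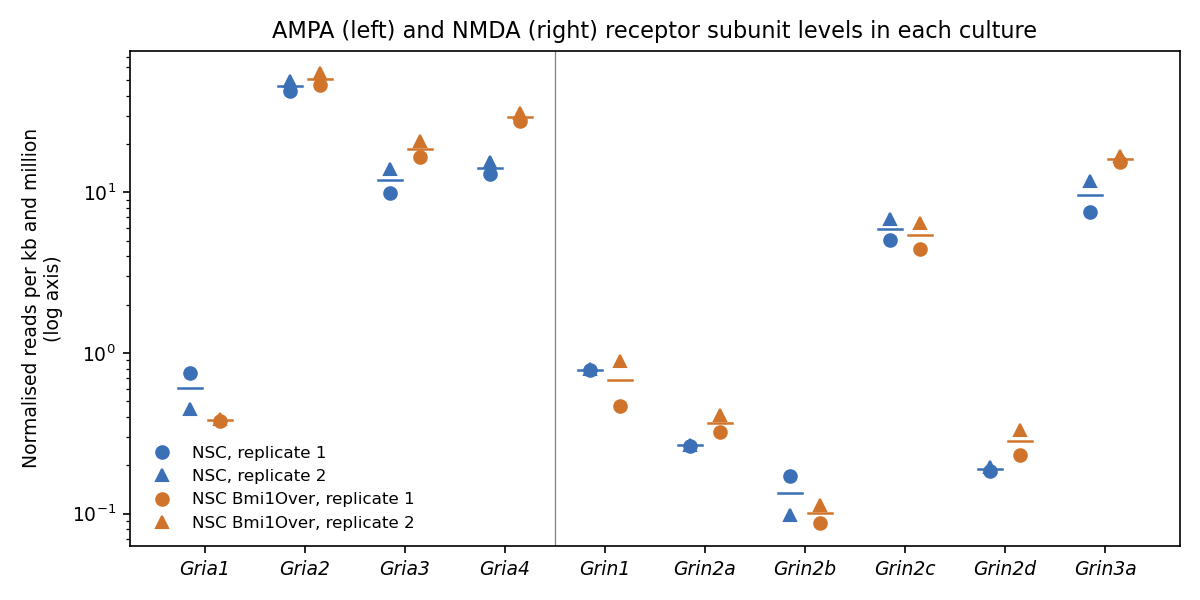
Level of each subunit gene in each culture, in CPM per kb of exon on a log axis. Points are single cultures and short lines the mean of 2. *Gria2* lies highest at about 46.0 per kb in NSC, 5 genes lie above 1 and 5 below, and both NSC Bmi1Over points of *Gria4* lie above both NSC points.

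Reads that fall on 2 genes at once are left out by unstranded counting, which bears on 2 of the low genes. Of the exon bases of *Grin1*, 13.5% are shared with the antisense gene *Grin1os*, and of those of *Grin2d* 9.66% with the antisense gene *Gm45441*. *Grin1* had 240 and 194 reads in NSC in the unstranded column and 450 and 358 in the sum of both stranded columns, which adds the reads of the shared bases. For *Grin2d* the same change was from 39 and 33 to 50 and 38 reads. As the kit does not mark the strand, reads of these genes and their antisense partners cannot be told apart. The other 8 genes shared at most 1.81% of their exon bases with another gene.

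Within each receptor family the make-up was then compared between the groups. *Gria2* took 64.3% and 62.3% of the summed AMPA level per kb in NSC and 51.1% and 51.3% in the cultures labelled NSC Bmi1Over. Its own level overlapped between the groups, at 42.8 and 49.2 per kb in NSC and then at 46.6 and 55.1 per kb. *Gria4* took 19.6% and 19.5% in NSC and 30.3% and 29.0% in the cultures labelled NSC Bmi1Over. With the longest coding transcript as the length, *Gria4* took 15.3% and 15.1% in NSC and then 23.9% and 22.7%. *Gria3* took 14.9% and 17.6% and then 18.2% and 19.3% with the exon union, and 19.0% and 22.3% and then 23.6% and 24.9% with the longest coding transcript. *Gria1* took 1.13% and 0.572% and then 0.414% and 0.361%. The groups did not overlap for any of the 4 AMPA shares, which sum to a fixed whole and so are not independent of each other. The levels of 59.0% of all tested genes did not overlap between the groups either. No exact permutation test of 2 against 2 can give a two-sided p below 0.333, so these shares were not tested. Among the NMDA subunits, *Grin3a* took 53.8% and 59.0% in NSC and 73.4% and 67.2% in the cultures labelled NSC Bmi1Over, whereas *Grin2c* took 36.1% and 34.1% and then 21.3% and 25.8%. *Grin1* was between 2.25% and 5.61% of the summed NMDA level in the 4 libraries. Its share depended on the counting, at 3.38% to 8.89% with the longest coding transcript as the length and at 4.22% to 9.75% with the sum of the stranded columns, and it stayed below those of *Grin3a* and *Grin2c* in each library under both.

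**Figure D2:**
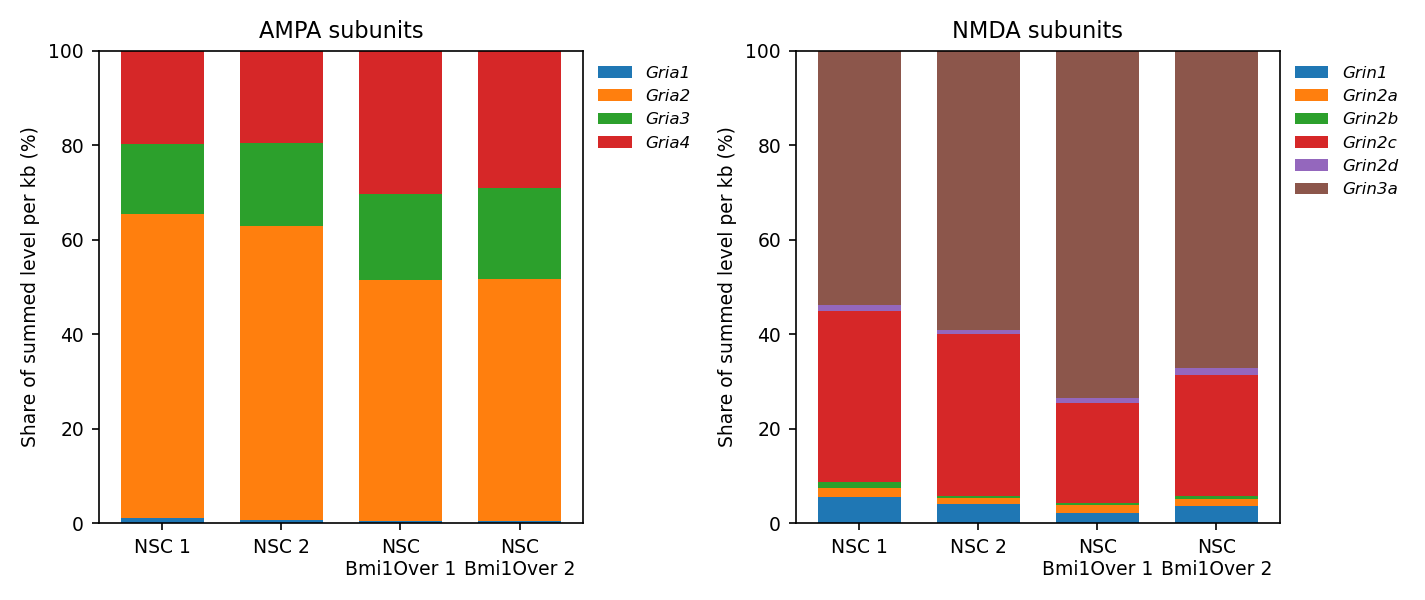
Share of each subunit in the summed level per kb of its family, as a percentage, in each of the 4 libraries. The *Gria2* share is 64.3% and 62.3% in the NSC cultures and 51.1% and 51.3% in those labelled NSC Bmi1Over, and *Grin3a* makes up most of the NMDA sum in every library.

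Expression in the cultures labelled NSC Bmi1Over was then compared with NSC over all 15521 tested genes, of which 2.15% were called (p under 0.05 in the edgeR quasi-likelihood fit after Benjamini-Hochberg adjustment) and 2.03% were called as higher. Of the 10 subunit genes, 1 was called, *Gria4*, and it was higher in the cultures labelled NSC Bmi1Over. *Gria4* encodes an AMPA subunit with fast kinetics that is known from early development and from glia. The gene (ENSMUSG00000025892) lies on the minus strand of build mm10 at chr9:4417896-4796234. It was at 82.3 and 97.1 CPM in NSC and at 174 and 196 CPM in those labelled NSC Bmi1Over. Both cultures labelled NSC Bmi1Over were thus above both NSC cultures. The log2 fold change was 1.05 ± 0.14 (SE, n = 2 and 2), which is 2.07-fold, with an adjusted p of 0.0179 from edgeR. The difference between the 2 NSC cultures was 0.24 on the same log2 scale. *Gria4* was called under all 12 alternatives. In 4 of these alternatives a culture was left out, so that 1 group had a single culture, assumed to vary like the other group, whose 2 cultures gave the spread. They gave a log2 fold change between 0.93 and 1.16. Over the alternatives that kept all 4 cultures, the adjusted p was between 3.98e-09 and 0.0214. The median log2 fold change of all tested genes was −0.01. Among the marker genes, the astrocyte gene *Aldh1l1* was called as lower (log2 fold change −0.86, adjusted p = 0.0440 from edgeR) and the synaptic vesicle gene *Syt1*, of the neuronal list, as higher (2.18, adjusted p = 0.0428), at 9.12 and 27.2 CPM and then at 66.4 and 95.7 CPM. *Syt1* was the 1 called of the 8 tested neuronal markers, whose median is given above. The log2 fold change of *Syt1* was 1.58 without NSC replicate 1 and 3.15 without NSC replicate 2, and its call was lost with DESeq2's size factors (adjusted p = 0.0517) and without NSC Bmi1Over replicate 2 (adjusted p = 0.0713). The call of *Aldh1l1* was lost without NSC replicate 1 (adjusted p = 0.124) and without NSC Bmi1Over replicate 2 (adjusted p = 0.0897). The part of these markers, of the lower astrocyte marker sum, of the neural stem cell and neuronal sums without their largest gene and of the higher share of unmapped reads in the *Gria4* result was not tested.

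*Gria3* and *Grin3a* had positive log2 fold changes that did not pass the threshold. *Gria3*, an AMPA subunit gene on the X chromosome (chrX:41400854-41678601, plus strand), was at 97.4 and 137 CPM in NSC and at 164 and 205 CPM in those labelled NSC Bmi1Over. The groups did not overlap, and the log2 fold change was 0.66 ± 0.19 (SE, n = 2 and 2, adjusted p = 0.0900 from edgeR). *Grin3a* (chr4:49661611-49845744, minus strand) was at 92.2 and 144 CPM in NSC and at 188 and 206 CPM in those labelled NSC Bmi1Over, with a log2 fold change of 0.74 ± 0.20 (SE, n = 2 and 2, adjusted p = 0.0831 from edgeR). For both genes the difference between the 2 NSC cultures was large, at 0.49 and 0.64 on the log2 scale, with the higher value in replicate 2. Both were called under 5 of the 12 alternatives, including DESeq2's Wald test (adjusted p = 0.0123 and 0.00542). Both values moved with the NSC culture left out. Without NSC replicate 1, the log2 fold change was 0.43 for *Gria3* and 0.45 for *Grin3a*, and without NSC replicate 2 it was 0.91 and 1.09.

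*Gria2*, the most abundant subunit, lies on the minus strand at chr3:80681450-80802835. It was at 665 and 765 CPM in NSC and at 724 and 857 CPM in those labelled NSC Bmi1Over, and the groups overlapped. Its log2 fold change was 0.14 ± 0.18 (SE, n = 2 and 2, adjusted p = 0.639 from edgeR), and it was −0.0041 when counts were scaled by library size alone. *Gria1* was the AMPA gene with a lower mean in the cultures labelled NSC Bmi1Over, at 4.56 and 2.73 CPM in NSC and 2.28 and 2.34 CPM in those labelled NSC Bmi1Over. Its log2 fold change of −0.66 ± 0.30 (SE, n = 2 and 2, adjusted p = 0.220 from edgeR) became −0.24 without NSC replicate 1, the culture that stood apart.

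Of the other NMDA genes, *Grin2c* was at 25.4 and 34.1 CPM in NSC and at 22.4 and 32.5 CPM in those labelled NSC Bmi1Over, with a log2 fold change of −0.10 ± 0.21 (SE, n = 2 and 2, adjusted p = 0.774 from edgeR). *Grin1* was at 7.60 and 7.67 CPM in NSC, nearly equal, and at 4.57 and 8.62 CPM in those labelled NSC Bmi1Over, on both sides of the NSC values. Its log2 fold change of −0.17 turned to 0.17 without NSC Bmi1Over replicate 1. *Grin2a* was at 4.72 and 4.82 CPM and then at 5.82 and 7.39 CPM, with no overlap and an adjusted p of 0.213 from edgeR. *Grin2d* was at 1.23 and 1.30 CPM and then at 1.54 and 2.22 CPM, again with no overlap and an adjusted p of 0.258. *Grin2b* was at 4.27 and 2.45 CPM and then at 2.17 and 2.83 CPM, and its groups overlapped. In all, the groups did not overlap for 6 of the 10 genes, against 59.0% of all tested genes, so the lack of overlap by itself does not set these genes apart. At an unadjusted p under 0.05 there were 3 of the 10, against 24.2% of all tested genes, and with DESeq2 there were 3 calls, against 9.64%. The median log2 fold change of the 10 genes was 0.32.

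**Figure D3:**
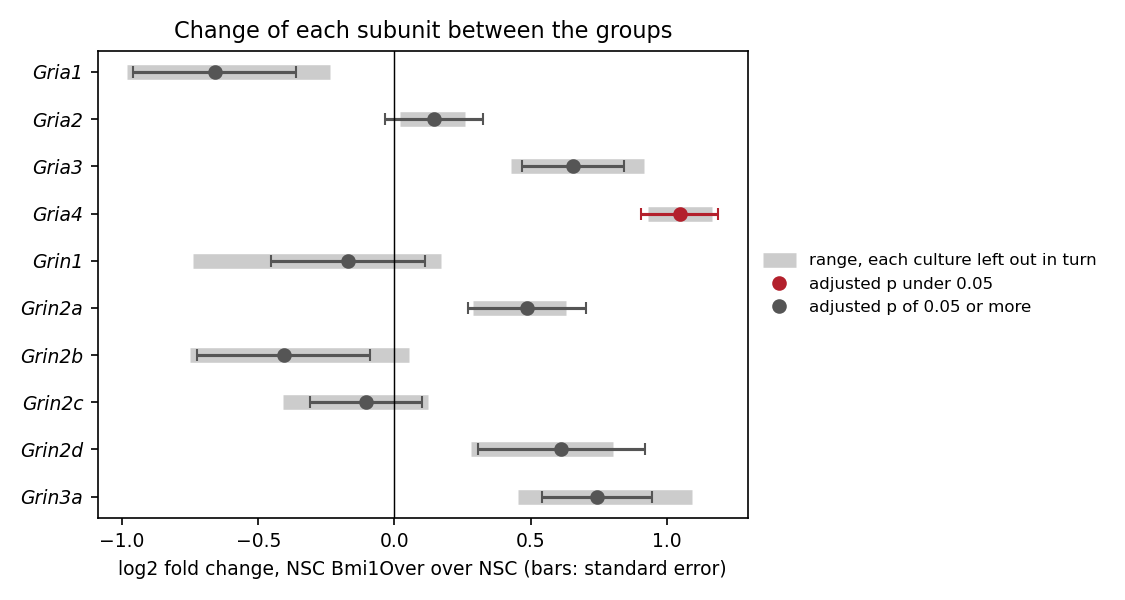
Log2 fold change of each subunit gene, NSC Bmi1Over over NSC, with bars for the standard error and grey bands for the range when each of the 4 cultures was left out in turn. *Gria4*, at 1.05, is the one gene with an adjusted p under 0.05, and the bands of *Grin1*, *Grin2b* and *Grin2c* cross 0.

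H3K27me3 was then examined at the same genes. A promoter peak, one within 5 kb of any annotated start site, was present at 4 of the 10 genes in NSC (*Gria3*, *Grin1*, *Grin2b* and *Grin2c*), against 8.83% of all protein-coding genes. In the library labelled NSC Bmi1Over it was present at 1 of the 10 (*Grin2b*), against 4.38%. The study kept 1 library per genotype, so no replicate check or test of these counts could be made. The NSC list held 12982 peaks, with a smallest fold enrichment over background of 3.52, and the NSC Bmi1Over list 6810 peaks, with a smallest fold enrichment of 4.03. Of the 7 promoter peaks at these genes in NSC, 3 had a fold enrichment below 4.03. The study's methods give unequal aligned read totals for the ChIPSeq libraries, the highest of them higher for NSC than for NSC Bmi1Over, and do not say which total belongs to the library that was kept. The part of depth in the different numbers of peaks was not tested.

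*Grin2b* was the gene with a promoter peak in both lists. In NSC a peak of 681 bp at chr6:136171632-136172312 spanned an annotated coding start site and overlapped 5′ UTR exon bases, enriched 5.80-fold (−log10 q 6.41). A second, of 204 bp at chr6:136172503-136172706, lay in an intron. In the library labelled NSC Bmi1Over a peak of 639 bp at chr6:136171159-136171797, enriched 4.46-fold (−log10 q 2.59), overlapped the first of these and lay 92 bp from the start site. *Grin2b* was also the gene with the lowest level per kb in NSC.

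*Grin2c* was marked in NSC alone, and with the largest share of its length under peaks. A peak of 1079 bp at chr11:115266004-115267082 lay 161 bp inside the start site and covered 500 exon bases, all UTR, with a fold enrichment of 4.94. A peak of 550 bp at chr11:115267281-115267830 lay 38 bp before the start and reached into the promoter printed above, with a fold enrichment of 3.95. The start site of the neighbouring gene *Fdxr* was also within 5 kb of both. Further peaks of 614 bp in the middle of the gene and 1130 bp near its end overlapped coding exons, so that peaks covered 15.6% of *Grin2c* in NSC. In the library labelled NSC Bmi1Over the nearest peak to its start was 47046 bp away. The difference in *Grin2c* reads did not pass the test, as given above, and at 5.91 ± 1.23 per kb (SD, n = 2) in NSC it was the marked gene with a mean second only to *Gria3*.

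At *Grin1* and *Grin2d* the mark lay at the 3′ end of the gene. The NSC peak at *Grin1* was the strongest of all those at the 10 genes, 2689 bp at chr2:25290056-25292744 enriched 7.34-fold (−log10 q 10.1). It covered 1304 exon bases, mostly UTR, and lay 26351 bp from the nearest start site of a coding transcript. It counted as a promoter peak only through the start of an internal non-coding transcript 3935 bp away, and start sites of *Lrrc26* and *Tmem210* were within 5 kb of it. In the library labelled NSC Bmi1Over a peak of 930 bp at chr2:25290286-25291215 covered the last 35 bases of the gene. The NSC peak at *Grin2d* was 2335 bp at chr7:45832421-45834755, with a fold enrichment of 6.35, and covered 1655 coding bases 32374 bp from the start site, with the start of *Grwd1* within 5 kb. With start sites of protein-coding transcripts only, 3 of the 10 genes had a promoter peak in NSC, without *Grin1*. The share of all protein-coding genes was not computed under this setting.

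*Gria3* showed another pattern, with 13 short peaks spread along its 277748 bp in NSC. They were between 200 and 456 bp long, with fold enrichments between 3.52 and 4.56, and 12 of them overlapped no exon. The 2 nearest to the start, at chrX:41403224-41403573 and chrX:41405469-41405679, lay 484 and 2729 bp inside it. In the library labelled NSC Bmi1Over 2 peaks of 200 bp lay in the gene, and none within 5 kb of a start. The X chromosome as a whole held 20.2 peaks per Mb in NSC, against 3.83 on the autosomes, and 5.53 against 2.35 in the library labelled NSC Bmi1Over. Of the 117 coding genes of at least 100 kb on X, 94.0% had a peak in NSC, with a median of 2.41 per 100 kb against 4.68 in *Gria3*, and 31 of them had more than *Gria3*. Of the 2372 autosomal genes of that length, 16.9% had a peak. *Xist*, the RNA that coats the inactive X chromosome and recruits this mark, was at 4261 and 4534 CPM in NSC and at 5178 and 4629 CPM in those labelled NSC Bmi1Over.

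No peak lay in *Gria1*, *Gria2*, *Gria4*, *Grin2a* or *Grin3a*, or within 5 kb of their starts, in either list. For *Gria4* the nearest peak to a coding start was 1757123 bp away in NSC and 1757124 bp in the library labelled NSC Bmi1Over, so the higher reads of *Gria4* came with no H3K27me3 peak in either genotype. For *Gria2* the nearest peak was 795467 bp away in NSC and for *Grin3a* 1265149 bp. Among the 5 genes above 1 per kb in NSC, 2 had a promoter peak, as had 2 of the 5 below it. These counts depended on the peak setting. With a fold enrichment of at least 5 they were 0 and 2, and with start sites of protein-coding transcripts only they were 2 and 1, since *Grin1* counted only through a non-coding start.

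**Figure D4:**
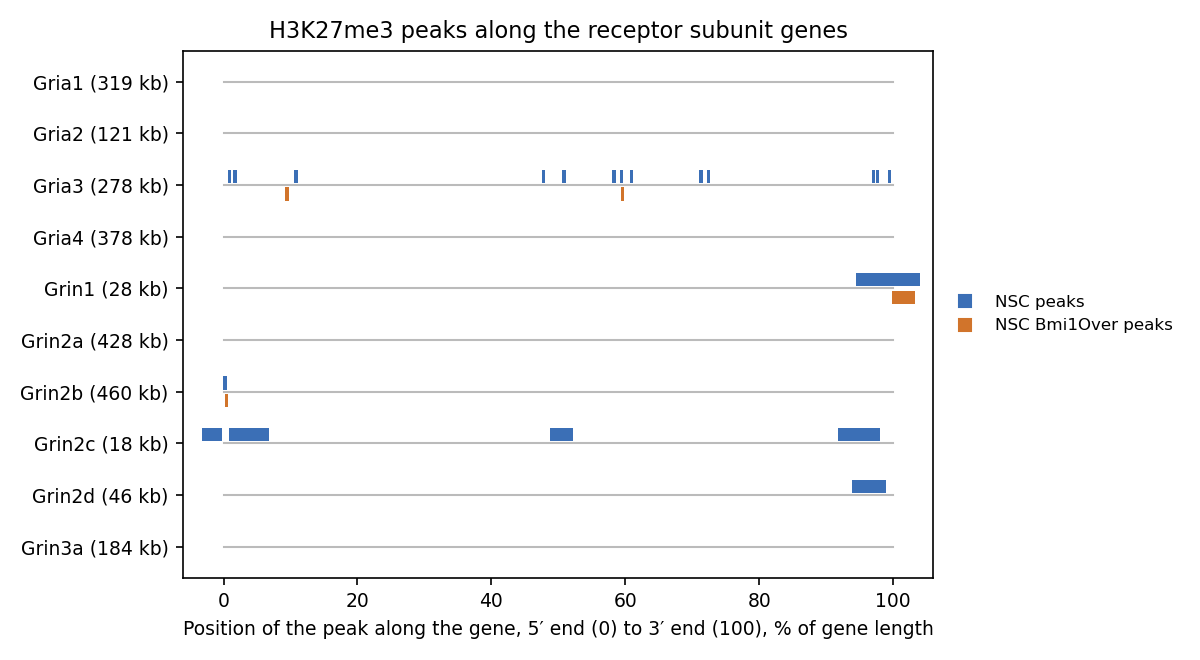
H3K27me3 peaks of NSC and NSC Bmi1Over along each subunit gene, as the position from the 5′ end (0) to the 3′ end (100) in percent of gene length, with peaks drawn at least 0.5% wide. The peaks of *Grin1* and *Grin2d* lie at the 3′ end, those of *Grin2b* at the 5′ end, and 13 short NSC peaks are spread along *Gria3*, whereas 5 genes have none.

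The other genes of glutamate signalling gave the setting for these receptors. Of 57 such genes, 49 were tested and 0 were called by edgeR, against 2.15% of all tested genes. At an unadjusted p under 0.05 there were 16 (32.7%, against 24.2% of all), and DESeq2 called 5 (10.2%, against 9.64% of all). The median log2 fold change of the 49 tested genes was 0.14. By list it was 0.35 for the 5 kainate receptors, 0.55 for the 2 delta receptors, 0.15 for the 4 tested of 8 metabotropic receptors and 0.09 for the 13 tested of 14 auxiliary subunits. It was 0.10 for the 15 tested of 16 scaffolds and kinases, 0.59 for the 4 tested of 6 transporters and −0.18 for the 5 genes of RNA editing, co-agonist supply and repression. Among the kainate receptors *Grik5* had the highest level in NSC, at 20.2 per kb, and among the metabotropic receptors *Grm5*, at 44.4 per kb, near the level of *Gria2*. Of the auxiliary subunits that ride on AMPA receptors, *Cacng7* was highest, at 49.7 per kb. In the same list *Cacng3* went the other way, with a log2 fold change of −1.74 ± 0.46 (SE, n = 2 and 2, adjusted p = 0.0775 from edgeR). It rested on few reads, 31 and 25 in NSC and then 2 and 21. *Shisa6* was at 0.76 (adjusted p = 0.0643 from edgeR) and *Gsg1l* at 0.78 (adjusted p = 0.0689). *Cacng5*, like these picked after its values were seen, had a log2 fold change of 1.06 ± 0.24 (SE, n = 2 and 2, adjusted p = 0.0614 from edgeR) and was called under 7 of the 12 alternatives. With each culture left out it ranged from 0.66, without NSC Bmi1Over replicate 2 (adjusted p = 0.145), to 1.35, without NSC Bmi1Over replicate 1. The glial glutamate transporter *Slc1a3* was at 238 per kb, while *Slc17a6*, a vesicular transporter that marks glutamatergic neurons, was at 0 in all 4 libraries. The vesicular transporter *Slc17a7* had 4 and 4 reads in NSC and 2 and 18 in the cultures labelled NSC Bmi1Over. *Slc17a8*, another, had 18 and 7 and then 32 and 63 reads, with a log2 fold change of 1.67 ± 0.45 (SE, n = 2 and 2, adjusted p = 0.0831 from edgeR). *Grin3b*, the remaining NMDA subunit gene, had 4 and 3 reads in NSC and 7 and 24 in the cultures labelled NSC Bmi1Over, with a log2 fold change of 1.72 ± 0.52 (SE, n = 2 and 2, adjusted p = 0.101 from edgeR), which was 0.68 with the sum of the stranded columns. *Camk2b*, a synaptic kinase, was at 33.3 per kb, the delta receptor gene *Grid1* at 9.84 and *Slc6a9*, a glycine transporter, at 11.5. *Adarb1*, which edits the *Gria2* transcript, was at 2.07 per kb in NSC and 1.83 in the cultures labelled NSC Bmi1Over (adjusted p = 0.428 from edgeR). *Rest* was at 6.09 and 5.76 per kb (adjusted p = 0.715 from edgeR).

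**Figure D5:**
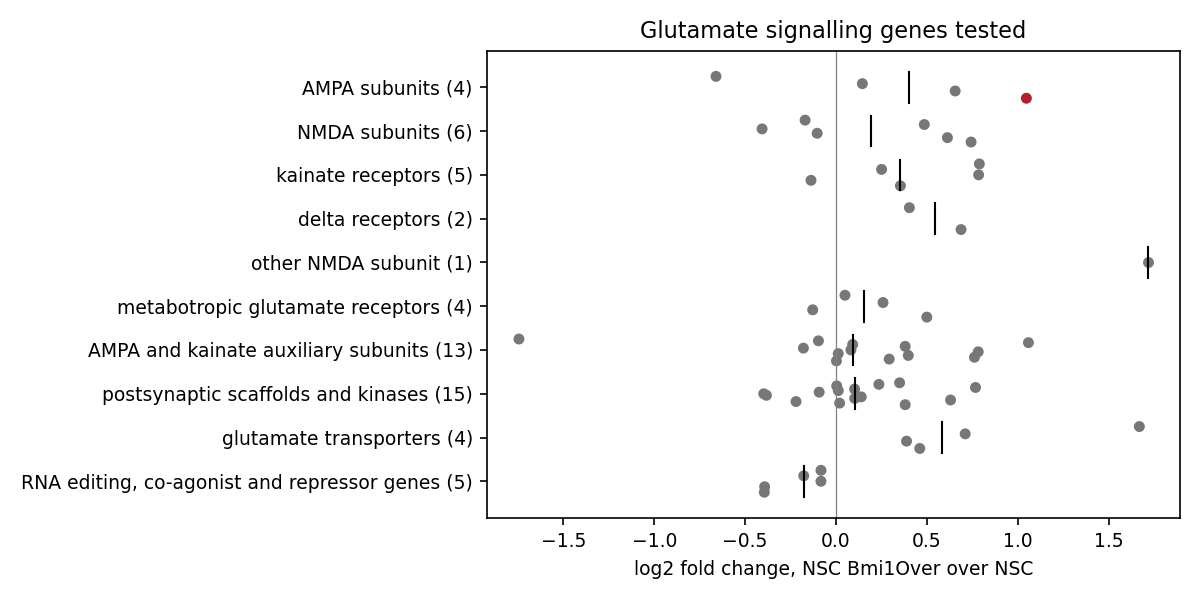
Log2 fold change of each tested gene of the receptor families and of the other glutamate signalling lists, NSC Bmi1Over over NSC, with the number of genes tested per list in brackets and a line at the median of each list. *Gria4* is the one gene with an adjusted p under 0.05.

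The genes whose reads were most like those of *Gria2* over the 4 libraries, by the distance of log2(CPM + 1), were *Prrc2a* (distance 0.21), *Dync1h1* (0.23) and *Ntrk2* (0.24), out of the tested protein-coding genes outside the lists.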

How the data were processed

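RNASeq counts of 2 NSC and 2 NSC Bmi1Over cultures and H3K27me3 peak lists of 1 library each were used. The deposited RNASeq values are raw read counts per gene from STAR (mm10), which the authors ran after adaptor removal with Trim Galore; the TruSeq RNA kit marks no strand, so the unstranded column was used. Only reads on genes entered library sizes and tests, between 65.9% and 72.2% of all reads. ChIPSeq reads were placed by the authors with Bowtie2 2.3.4 without multi-mapped reads, the weaker library of each genotype was dropped, and broad peaks came from MACS2. The deposited lists give each peak's fold enrichment over background and the −log10 of its p and q, and a deposited display score that was not used. The lists hold no read depth, and the study gives read totals per genotype without naming the library kept.

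Of the 50686 gene identifiers, 50462 matched GENCODE vM21, of the same build. Differential expression used edgeR 4.0.16 under R 4.3.3 (filterByExpr, TMM, quasi-likelihood F-test, no block), the standard error being derived from the log2 fold change and F. The common biological coefficient of variation was 12.9%. The steps were tested on simulated counts. Levels are CPM with TMM factors, divided by the kb of the union of annotated exons where genes are compared. Peaks and promoters were handled in Python 3.11.15, and a peak overlapping a window by 1 bp was counted.

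Members and lists were chosen with earlier results of these data known. Named outside the members were *Bmi1*, called list genes, *Grin3b*, *Adarb1*, *Rest* and the 3 genes nearest to *Gria2*. So was the gene with the highest level in NSC of each glutamate signalling list and of the neuronal, astrocyte and oligodendrocyte lists. *Xist*, *Cacng3*, *Cacng5*, *Shisa6*, *Gsg1l*, *Slc17a6*, *Slc17a7*, *Slc17a8* and genes beside peaks were named after their values were seen. The same holds for the neuronal, astrocyte and oligodendrocyte markers that this rule does not cover. P-values measure the spread between 2 cultures per group (with a culture left out, that of the group that keeps 2), which the study calls biologically independent. Both edgeR and DESeq2 draw the spread of each gene towards that of the other tested genes. The p-values and standard errors therefore rest on all tested genes too, and not on the values of 1 gene alone. The alternatives were DESeq2 1.42.0, its size factors in edgeR, scaling by library size alone, other filters, stranded columns, coding genes only, the replicate block, leaving out each culture, another gene length (for shares and order added after seeing the data) and, for peaks, stricter limits and a narrower window.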

Additional observations from a re-analysis of the deposited data

How the results depend on the processing

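The sign of every fold change and the side of the threshold were the same as in the main setting for 105 of the 120 values of the 10 subunit genes under the alternatives, and *Gria4* was called under all 12. *Gria3* and *Grin3a* were called in addition, making 3 subunit genes in place of 1, with DESeq2's Wald test, without a filter on low counts and with the replicate block, and the count lay between 1 and 3 when each culture was left out. Scaling by library size alone shifted the median over all tested genes from −0.01 to −0.17 (log2), and *Gria2* turned to −0.0041. When each culture was left out, *Grin1* ranged from −0.74 to 0.17, *Grin2b* from −0.75 to 0.052 and *Grin2c* from −0.41 to 0.12. The number of called genes, 334, was 537 with library size alone, 1496 with DESeq2's Wald test, 2356 without a filter, 3459 with the replicate block, and from 176 (without NSC replicate 1) to 2546 (without NSC Bmi1Over replicate 1) when a culture was left out. Of the other glutamate signalling genes, 0 in the main setting, 2 were called with library size alone, 5 with DESeq2's Wald test, 10 without a filter, 19 with the replicate block and from 0 to 16 with a culture left out. The replicate numbers are not stated to pair the cultures, and the differences between replicates of the groups correlated at r = 0.17 over 15521 genes. Promoter peaks stood at 2 subunit genes in NSC (in place of 4) and at 0 in NSC Bmi1Over (in place of 1) with peaks of at least 1000 bp or a fold enrichment of at least 5, and at 0 in NSC Bmi1Over with a −log10 q of at least 3. The share of all protein-coding genes was computed for the main setting only. The number of subunit genes above 1 per kb in NSC was 6, with *Grin1* added, when levels were divided by the longest coding transcript or taken from the sum of the stranded columns, and 5 under the other alternatives run for it. The causes of these changes were not tested. *Grin2d*, *Grin2b* and *Gria1* rest on few reads, and whether depth limits their comparison was not tested.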
